A study of Mus musculus with 3 samples.

Results

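Potassium channels are encoded in the mouse mostly by genes whose symbols begin with Kcn. The genes described here are the rows of the deposited expression table with such a symbol, 96 of 24054 rows after 1 gene with the prefix was left out. They hold 76 genes for pore-forming subunits, 16 for auxiliary subunits and 4 others, which are a regulator and noncoding transcripts. RNA was sequenced from cortical neurons of embryonic day 17 C57BL/6 mice that had grown in culture for 7 days. One culture spent 7 hours at 0.2% oxygen with T3, the thyroid hormone triiodothyronine, at 5 nM (hypoxia with T3), another spent the same time at 0.2% oxygen without added T3 (hypoxia), and the control was held at 21% oxygen. Each group is 1 library, all 3 come from the same strain and age, and the labels do not state the hormone content of the control medium or how many animals were pooled. No difference below could therefore be tested against the spread between cultures, and every comparison is one of libraries.

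Potassium channels let potassium leave the cell, which sets the resting potential, ends the action potential and spaces the spikes of a train. Voltage-gated (Kv) channels open on depolarisation, calcium- and sodium-activated channels open with ions that entered during a spike, inward rectifiers (Kir) pass current near rest, and tandem pore-domain (K2P) channels carry a background leak. In cortical neurons, a delayed rectifier built of Kv2 subunits sits on the cell body, Kv1 channels guard the axon, Kv4 channels carry the transient A-type current of dendrites, and Kv7 channels carry the M-current that restrains firing. Auxiliary subunits bind these pores and change their gating or traffic.

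The libraries held 22533574 reads for hypoxia with T3, 17118865 for hypoxia and 18081904 for control. Levels are given as normalised read counts (CPM, reads scaled to library size by the authors with TMM), in which 1 read stood for 0.0425 CPM in hypoxia with T3, 0.0552 CPM in hypoxia and 0.0463 CPM in control. A fold is the ratio of 2 CPM values, and the range in parentheses after it is an exact 95% Clopper-Pearson interval that covers counting error only. Of the potassium channel genes, 66 reached 1 CPM on average over the libraries and were compared, among 12692 genes compared in all. A gene was called where its CPM, with 1 CPM added to each value, lay at least 2-fold apart, so that counts of calls are over these 66 genes and not over all 96. The oxygen and hormone labels matched the levels of textbook target genes. Slc2a1, a glucose transporter gene raised by hypoxia, stood at 51.7 CPM in hypoxia with T3, 51.1 CPM in hypoxia and 8.06 CPM in control, and Hr, a thyroid hormone target, at 23.9 CPM in hypoxia with T3, 4.75 CPM in hypoxia and 4.03 CPM in control.

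Start regions are shown for the potassium channel genes with some of the strongest ratios and a RefSeq start, which are a called inward rectifier that was higher in hypoxia, an uncalled silent subunit that was higher, and a K2P and a GIRK gene that were lower. Each runs from 250 bases before to 50 bases after a RefSeq transcript start (GRCm38.p6, the assembly of the build mm10), read 5′ to 3′ on the strand of the gene. Capitals mark ACGTG or GCGTG, the cores of the hypoxia response element, or their reverse complements. The motif CACGTG holds ACGTG on both strands.
Kcnj2, chr11:111065914-111066213, plus strand: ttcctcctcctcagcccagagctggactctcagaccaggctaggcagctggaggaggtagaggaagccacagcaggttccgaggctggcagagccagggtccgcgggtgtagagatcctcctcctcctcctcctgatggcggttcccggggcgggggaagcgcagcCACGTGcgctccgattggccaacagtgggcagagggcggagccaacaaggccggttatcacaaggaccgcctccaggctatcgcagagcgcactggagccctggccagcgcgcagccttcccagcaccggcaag
Kcnf1, chr12:17176839-17177138, minus strand: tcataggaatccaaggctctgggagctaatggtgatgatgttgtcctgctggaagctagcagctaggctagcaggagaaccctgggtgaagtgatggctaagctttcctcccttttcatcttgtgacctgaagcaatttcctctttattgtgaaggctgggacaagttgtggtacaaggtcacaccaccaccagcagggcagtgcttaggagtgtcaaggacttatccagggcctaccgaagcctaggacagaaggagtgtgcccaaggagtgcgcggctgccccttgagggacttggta
Kcnk10, chr12:98575078-98575377, minus strand: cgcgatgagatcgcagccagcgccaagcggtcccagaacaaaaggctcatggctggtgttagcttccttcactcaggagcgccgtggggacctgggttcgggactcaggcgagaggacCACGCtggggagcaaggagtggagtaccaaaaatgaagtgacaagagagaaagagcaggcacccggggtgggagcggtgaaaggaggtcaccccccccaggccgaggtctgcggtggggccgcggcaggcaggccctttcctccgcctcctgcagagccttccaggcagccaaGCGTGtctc
Kcnj3, chr2:55435720-55436019, plus strand: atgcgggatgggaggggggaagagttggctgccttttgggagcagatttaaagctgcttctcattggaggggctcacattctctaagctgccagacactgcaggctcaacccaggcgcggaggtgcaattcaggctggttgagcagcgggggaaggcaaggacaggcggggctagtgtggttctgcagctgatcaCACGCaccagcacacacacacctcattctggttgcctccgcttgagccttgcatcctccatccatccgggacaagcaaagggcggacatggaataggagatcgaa
The Kcnj2 window holds 1 such motif, that of Kcnf1 none, that of Kcnk10, at one of its 2 RefSeq starts, a match on each strand (the window at the other start holds none) and that of Kcnj3 a match on the other strand. The cores are common letters. On either strand, ACGTG was in 19.6% and GCGTG in 32.4% of all 32851 promoters of this length, and 43.8% held at least one of them. Of the 96 potassium channel genes, 70 had 95 counted promoters, and 44 of these promoters, or 46.3%, held a core. Genes without a counted promoter, such as Kcnn2, may still have a start in RefSeq, so this share covers the counted promoters only. Among the 14 genes called lower in either hypoxic library, of which Kcnn2 is one, 9 had 13 counted promoters. Of those 13 promoters 5, or 38.5%, held a core. The AP-1 motif TGANTCA was in 4 of the 95 promoters, against 7.81% of all promoters. A match is a description of letters and not of a bound site.

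Together, the potassium channel genes were lower in both hypoxic libraries. Their CPM summed to 1460 in hypoxia with T3, 1411 in hypoxia and 1652 in control, so that the sum was 1.17-fold lower (1.15 to 1.19) in hypoxia and 1.13-fold lower (1.11 to 1.15) in hypoxia with T3 than in control. In hypoxia against control, 45 of the 66 compared genes had a ratio below 1 and 21 above it. The share above 1 was 31.8% for the channel genes, against 54.5% of all compared genes. Of the 66 channel genes, 10 were called lower, or 15.2% against 4.92% of all compared genes. Only 1 was called higher, or 1.52% against 1.99% of all compared genes. The median log2 ratio of (CPM + 1) was -0.23 for the channel genes, with quartiles of -0.78 and 0.13, and 0.05 for all compared genes, with quartiles of -0.31 and 0.34. The counting interval lay wholly below 1 for 35 channel genes, against 30% of all compared genes, and wholly above 1 for 11, against 37.8% of all compared genes. Of the 66, 37 (56.1%) lay within 1.5-fold of control, against 77.7% of all compared genes.

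In hypoxia with T3 against control, a comparison that shares the control library with the one above, 12 channel genes were called lower, 18.2% of those compared against 4.59% of all compared genes. None was called higher, against 2.06% of all compared genes. The interval lay wholly below 1 for 31 channel genes, against 29.6% of all compared genes, and wholly above 1 for 14, against 40% of all compared genes. The median log2 ratio of (CPM + 1) was -0.17 for the channel genes and 0.08 for all compared genes. Called lower in both hypoxic libraries were 8 genes, Kcnb2, Kcnh1, Kcnh5, Kcnj12, Kcnj3, Kcnk10, Kcnmb2 and Kcnv1. Kcnh5, Kcnmb2 and Kcnh8, the last called with T3 only, were under 1 CPM in both hypoxic libraries. They passed the filter through control, which favours a lower call. Under a 5 CPM filter, 7 of 52 channel genes were called lower in each comparison with control. The shares of all genes were then 4.56% in hypoxia and 4.22% in hypoxia with T3. That filter is also on a mean that includes control, so it does not remove what favours a lower call. Kcnb2 passed it with under 5 CPM in both hypoxic libraries. Without a filter, the lower calls stayed at 10 and 12. When libraries were scaled to equal read sums in place of the deposited factors, the median of all compared genes shifted to -0.10 in both comparisons, and calls over all genes became 188 higher and 952 lower in hypoxia, against 252 higher and 624 lower as deposited. In hypoxia, the channel genes' median stayed 0.29 below that of all genes on the log2 scale under equal sums and 0.28 below it as deposited. The 10 and 12 lower calls were made under each of 4 scalings, whereas Kcnj2, the one higher call, was not made under equal sums. Every scaling other than the deposited one lowered the ratios to control, so keeping the lower calls does not test them.

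**Figure D1:**
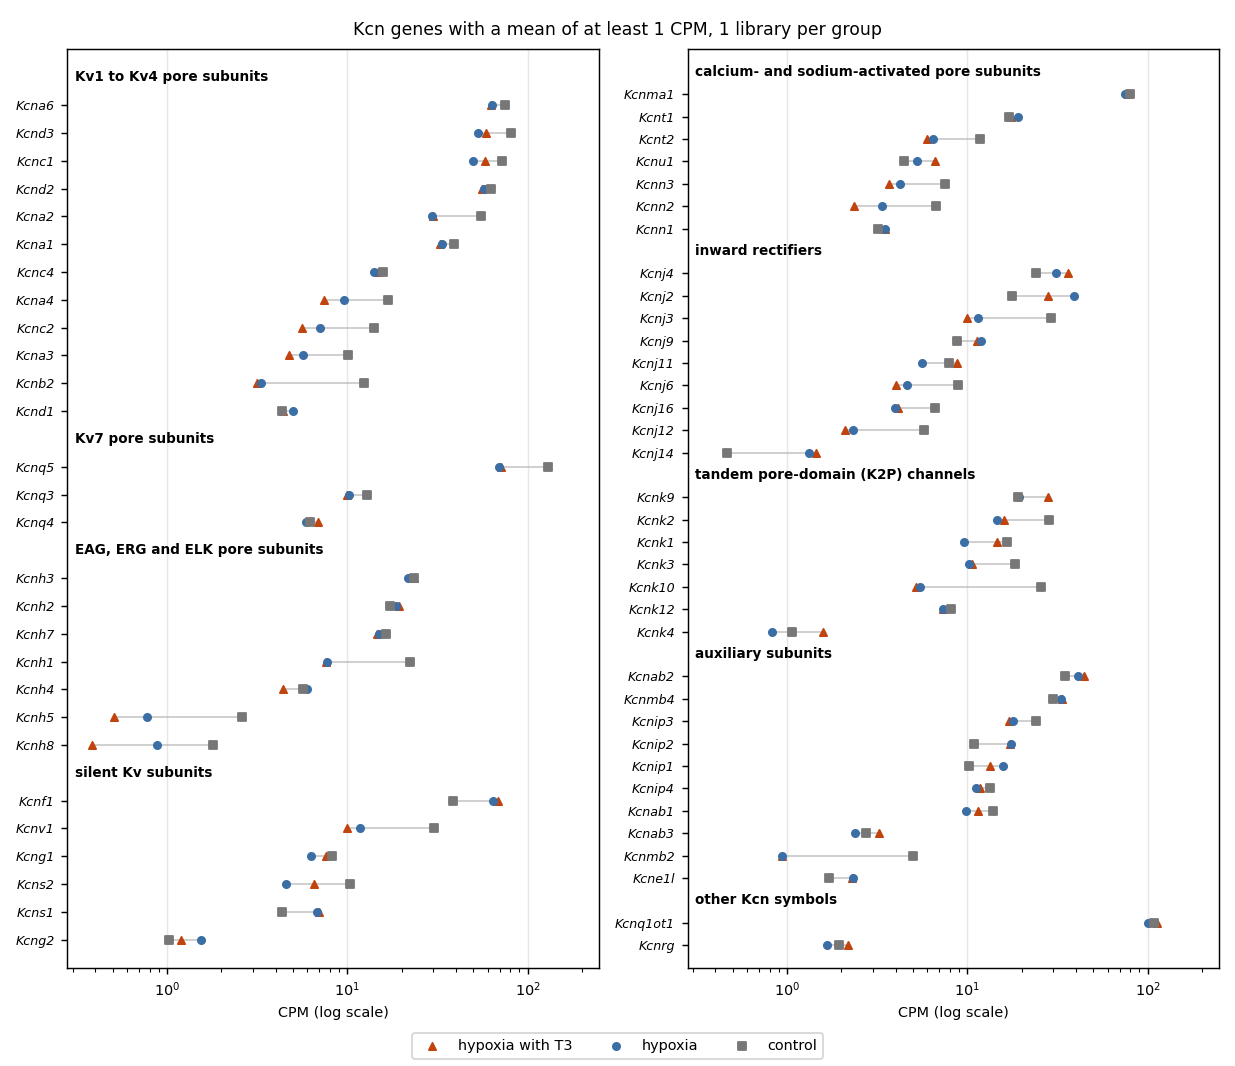
Levels of 63 of the 66 compared potassium channel genes by family, in CPM on a log axis, with a triangle for hypoxia with T3, a circle for hypoxia and a square for control, 1 library each. The line joins the lowest and highest library of a gene. Where a line is long the 2 hypoxic libraries usually sit side by side and the control apart, as for Kcnk10, Kcnb2 and Kcnmb2 below control and Kcnf1 above it.

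Of the 14 compared Kv1 to Kv4 genes, 2 were called lower in hypoxia and 3 in hypoxia with T3. Over all compared genes 4.92% were called lower in hypoxia and 4.59% in hypoxia with T3. These shares also stand beside the counts of lower calls in the smaller gene groups below. Kcnb2 (chr1:15287254-15723750, plus strand), the gene for Kv2.2, had 3.15 CPM in hypoxia with T3, 3.31 CPM in hypoxia and 12.3 CPM in control. It was 3.72-fold (2.80 to 5.01) lower in hypoxia and 3.92-fold (3.02 to 5.14) lower in hypoxia with T3. It was called lower in both hypoxic libraries.

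The Kv1 genes were lower in hypoxia without exception among the 5 compared, and none of them passed the call there. Kcna2, the axonal Kv1.2 subunit, had 29.9 CPM in hypoxia with T3, 29.6 CPM in hypoxia and 55.2 CPM in control, and was 1.87-fold (1.68 to 2.07) lower in hypoxia. Kcna4, whose product Kv1.4 inactivates rapidly, had 7.44 CPM in hypoxia with T3, 9.61 CPM in hypoxia and 16.9 CPM in control. Its level was 2.27-fold (1.89 to 2.73) lower in hypoxia with T3, where it was called, and 1.75-fold (1.46 to 2.12) lower in hypoxia. Kcna1 and Kcna6 were nearer to control. Kcna1, the gene for the axonal subunit Kv1.1, had 32.8 CPM in hypoxia with T3, 33.5 CPM in hypoxia and 39.2 CPM in control, and Kcna6 (Kv1.6) had 62.6 CPM in hypoxia with T3, 63.2 CPM in hypoxia and 74.9 CPM in control.

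Kv3 channels close fast enough for high-frequency firing. Kcnc1, the Kv3.1 gene, had 58.4 CPM in hypoxia with T3, 50.1 CPM in hypoxia and 71.8 CPM in control, and was 1.43-fold (1.32 to 1.56) lower in hypoxia. Kcnc2, the Kv3.2 gene, active in cortical interneurons, had 5.61 CPM in hypoxia with T3, 7.01 CPM in hypoxia and 14.0 CPM in control, and was called lower with T3, by 2.49-fold (2.03 to 3.08). Of the Kv4 genes, Kcnd3 had 58.6 CPM in hypoxia with T3, 53.3 CPM in hypoxia and 81.4 CPM in control. Its paralog Kcnd2, the main A-type subunit of pyramidal dendrites, was close to control, with 55.8 CPM in hypoxia with T3, 57.5 CPM in hypoxia and 63.0 CPM in control.

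The Kv7 genes make the M-channel. Kcnq5 had 71.1 CPM in hypoxia with T3, 69.4 CPM in hypoxia and 129.3 CPM in control, and was 1.86-fold (1.74 to 1.99) lower in hypoxia. Kcnq3, another M-channel subunit, was nearer to control and had 9.99 CPM in hypoxia with T3, 10.2 CPM in hypoxia and 12.8 CPM in control. None of the 4 compared Kv7 genes was called in either comparison with control.

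The Kcnh genes differed among themselves. Kcnh1 (chr1:192190774-192510159, plus strand) and Kcnh5, the 2 EAG channels, were called lower in both hypoxic libraries. Kcnh1 had 7.61 CPM in hypoxia with T3, 7.68 CPM in hypoxia and 22.2 CPM in control, and was 2.89-fold (2.38 to 3.51) lower in hypoxia. Kcnh5 was sparse, with 0.510 CPM in hypoxia with T3, 0.773 CPM in hypoxia and 2.59 CPM in control, and a 3.36-fold (1.84 to 6.53) lower level in hypoxia. The ERG genes Kcnh2 and Kcnh7, whose channels carry slow currents that resist repeated firing, stayed near control: Kcnh2 had 19.3 CPM in hypoxia with T3, 18.7 CPM in hypoxia and 17.2 CPM in control, and Kcnh7 had 14.6 CPM in hypoxia with T3, 15.1 CPM in hypoxia and 16.4 CPM in control. Of the ELK genes, Kcnh3 was also near control, with 23.4 CPM in hypoxia with T3, 21.7 CPM in hypoxia and 23.4 CPM in control. Kcnh8 was called lower in hypoxia with T3, on 0.383 CPM there, 0.884 CPM in hypoxia and 1.81 CPM in control.

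Silent Kv subunits make no channel alone and modify Kv2 channels when they co-assemble with them. Their genes differed widely, although their summed level was similar, at 101.7 CPM in hypoxia with T3, 96.3 CPM in hypoxia and 94.9 CPM in control, with a direction that turned under other scalings. Kcnv1 (Kv8.1, chr15:45106284-45114920, minus strand) had 9.99 CPM in hypoxia with T3, 11.7 CPM in hypoxia and 30.4 CPM in control, and was 2.60-fold (2.22 to 3.05) lower in hypoxia. Kcns2 (Kv9.2) had 6.55 CPM in hypoxia with T3, 4.58 CPM in hypoxia and 10.4 CPM in control, and was called lower in hypoxia only, by 2.26-fold (1.75 to 2.95). Kcnf1 (Kv5.1, chr12:17172100-17176888, minus strand) went the other way, with 68.5 CPM in hypoxia with T3, 64.7 CPM in hypoxia and 38.4 CPM in control, and was 1.69-fold (1.54 to 1.85) higher in hypoxia. Kcns1 (Kv9.1) had 6.93 CPM in hypoxia with T3, 6.79 CPM in hypoxia and 4.36 CPM in control. Kcnf1 and Kcns1 were above control in hypoxia under all 4 scalings. Kcns3 (Kv9.3), which was too low to be compared, had 0 reads in hypoxia with T3, 0 reads in hypoxia and 19 reads, or 0.880 CPM, in control. With 0 taken as at most 3 reads in a library and the control count taken without its error, Kcns3 was at least 6.90-fold lower in hypoxia with T3 and at least 5.31-fold lower in hypoxia. The exact 95% intervals, which cover the counting error of the control too, reach to 5.09-fold lower in hypoxia with T3 and to 3.92-fold lower in hypoxia.

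Of 7 compared genes for calcium- and sodium-activated channels, 1 was called lower in hypoxia with T3 and 0 in hypoxia. Kcnma1, the pore of the BK channel that repolarises spikes, had 77.6 CPM in hypoxia with T3, 74.5 CPM in hypoxia and 79.8 CPM in control, and its interval in hypoxia included 1. The SK genes, which make the afterhyperpolarisation, were sparse, and Kcnn2 had 2.34 CPM in hypoxia with T3, 3.37 CPM in hypoxia and 6.67 CPM in control. Kcnn2 was called lower in hypoxia with T3, by 2.85-fold (2.08 to 3.97), and was 1.98-fold (1.46 to 2.72) lower in hypoxia. Kcnt1, a sodium-activated channel, had 17.5 CPM in hypoxia with T3, 19.2 CPM in hypoxia and 17.1 CPM in control, whereas its paralog Kcnt2 had 6.00 CPM in hypoxia with T3, 6.46 CPM in hypoxia and 11.7 CPM in control.

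**Figure D2:**
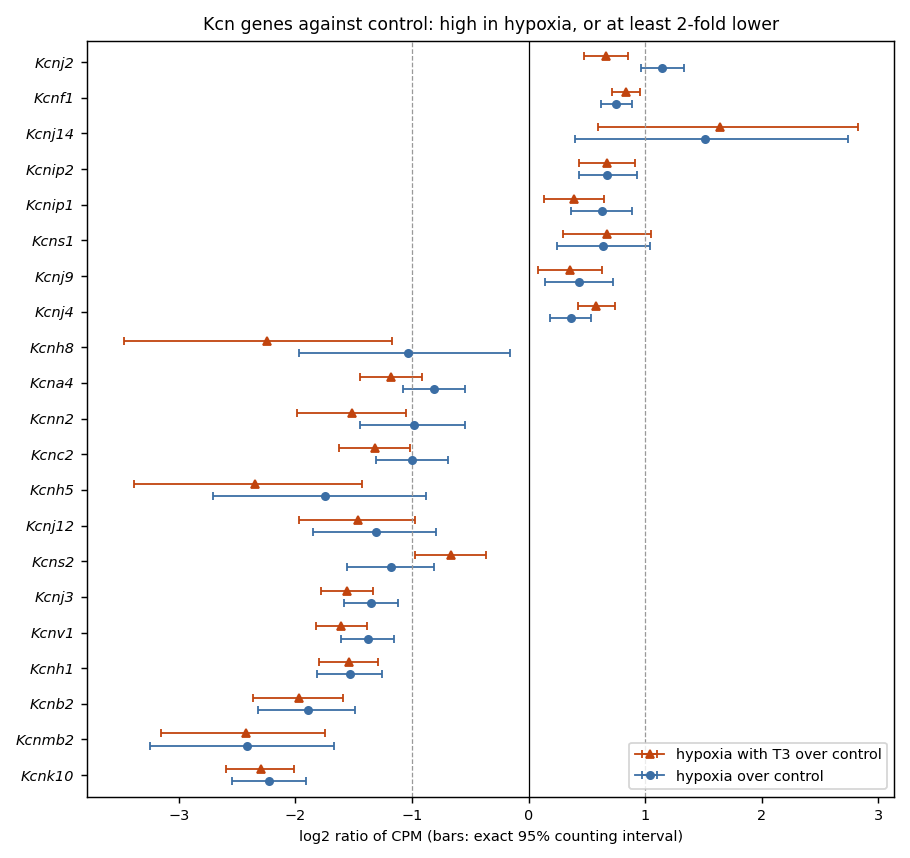
Log2 ratio to control of 8 of the 10 potassium channel genes with the highest ratio in hypoxia and 13 of the 14 called lower in either hypoxic library, with a triangle for hypoxia with T3 and a circle for hypoxia. Ratios are of CPM with nothing added, horizontal bars are the exact 95% counting intervals, dashed lines mark 2-fold, and 1 library stands behind each value. Kcnk10 and Kcnmb2 lie far below control in both hypoxic libraries, and Kcnj2 and Kcnf1 lie above it.

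The inward rectifiers held the one gene called higher and 2 called lower. Kcnj2 (Kir2.1, chr11:111066164-111076821, plus strand), a strong rectifier that holds the membrane near the potassium equilibrium, had 27.9 CPM in hypoxia with T3, 39.1 CPM in hypoxia and 17.6 CPM in control. It was 2.22-fold (1.95 to 2.52) higher in hypoxia and 1.58-fold (1.39 to 1.80) higher in hypoxia with T3, so the library with T3 lay between the others. Kcnj12 (Kir2.2) was called lower in both hypoxic libraries, with 2.08 CPM in hypoxia with T3, 2.32 CPM in hypoxia and 5.75 CPM in control, and Kcnj4 (Kir2.3) had 36.1 CPM in hypoxia with T3, 30.98 CPM in hypoxia and 24.1 CPM in control. Kcnj14 (Kir2.4) was 2.86-fold (1.32 to 6.70) higher in hypoxia as a ratio of CPM, on 1.45 CPM in hypoxia with T3, 1.33 CPM in hypoxia and 0.463 CPM in control, and was not called; 35.6% of its sequence is shared with an overlapping annotated gene on the same strand. Kcnj16 ends 38.2 kb before Kcnj2 begins on the same strand of chromosome 11, and had 4.12 CPM in hypoxia with T3, 3.98 CPM in hypoxia and 6.58 CPM in control, below control where its neighbour was above.

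The G-protein-gated (GIRK) subunits answer inhibitory transmitters. Kcnj3 (GIRK1, chr2:55435970-55598145, plus strand) had 9.95 CPM in hypoxia with T3, 11.5 CPM in hypoxia and 29.2 CPM in control, and was 2.55-fold (2.173 to 2.992) lower in hypoxia. Kcnj6 (GIRK2) had 3.997 CPM in hypoxia with T3, 4.64 CPM in hypoxia and 8.85 CPM in control. Kcnj9 (GIRK3) had 11.3 CPM in hypoxia with T3, 11.9 CPM in hypoxia and 8.80 CPM in control, which places it above control where the other 2 were below. Kcnj11, the pore of the ATP-sensitive channel, had 8.72 CPM in hypoxia with T3, 5.58 CPM in hypoxia and 7.88 CPM in control. Its partner genes outside the Kcn symbols, Abcc8 and Abcc9, summed to 9.18 CPM in hypoxia with T3, 8.89 CPM in hypoxia and 8.02 CPM in control.

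Tandem pore-domain genes had the lowest summed level relative to control of any family, with 84.2 CPM in hypoxia with T3, 68.3 CPM in hypoxia and 118.9 CPM in control. The sum was 1.74-fold (1.63 to 1.87) lower in hypoxia and 1.41-fold (1.332 to 1.499) lower in hypoxia with T3. The other scalings, which lower all ratios to control, placed both sums further below it. Kcnk10 (TREK-2, chr12:98429437-98578310, minus strand), a leak channel opened by stretch, heat and lipids, had 5.19 CPM in hypoxia with T3, 5.47 CPM in hypoxia and 25.5 CPM in control. It had the lowest log2 ratio of (CPM + 1) of the 66 genes in both comparisons with control, and the fold was 4.67 (3.76 to 5.84) lower in hypoxia and 4.92 (4.04 to 6.04) lower in hypoxia with T3. Its close relative Kcnk2 (TREK-1) had 15.9 CPM in hypoxia with T3, 14.6 CPM in hypoxia and 28.4 CPM in control, and was 1.94-fold (1.68 to 2.26) lower in hypoxia. The acid-sensitive channels differed from each other, with Kcnk3 (TASK-1) at 10.6 CPM in hypoxia with T3, 10.2 CPM in hypoxia and 18.3 CPM in control, and Kcnk9 (TASK-3) at 27.9 CPM in hypoxia with T3, 19.2 CPM in hypoxia and 19.1 CPM in control.

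The summed level of the auxiliary subunits was 155.6 CPM in hypoxia with T3, 152.1 CPM in hypoxia and 147.1 CPM in control, a difference whose direction turned under other scalings. Kcnmb2, the β2 subunit that inactivates BK channels (chr3:31902507-32200180, plus strand), was the one auxiliary gene called. It had 0.936 CPM in hypoxia with T3, 0.939 CPM in hypoxia and 5.00 CPM in control, and was 5.33-fold (3.18 to 9.49) lower in hypoxia. Kcnmb4, the brain β4 subunit, had 33.4 CPM in hypoxia with T3, 33.1 CPM in hypoxia and 29.98 CPM in control. The Kv4 partners Kcnip1 and Kcnip2 (KChIP proteins) were above control in hypoxia under all 4 scalings, with Kcnip1 at 13.3 CPM in hypoxia with T3, 15.7 CPM in hypoxia and 10.2 CPM in control, and Kcnip2 at 17.3 CPM in hypoxia with T3, 17.3 CPM in hypoxia and 10.8 CPM in control. Kcnip3 was below it, at 17.1 CPM in hypoxia with T3, 17.9 CPM in hypoxia and 23.9 CPM in control. Kcnq1ot1, an imprinted long noncoding RNA read across Kcnq1 in the opposite direction, had 112.8 CPM in hypoxia with T3, 100.7 CPM in hypoxia and 108.2 CPM in control, whereas Kcnq1 itself had at most 1 read in a library.

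**Figure D3:**
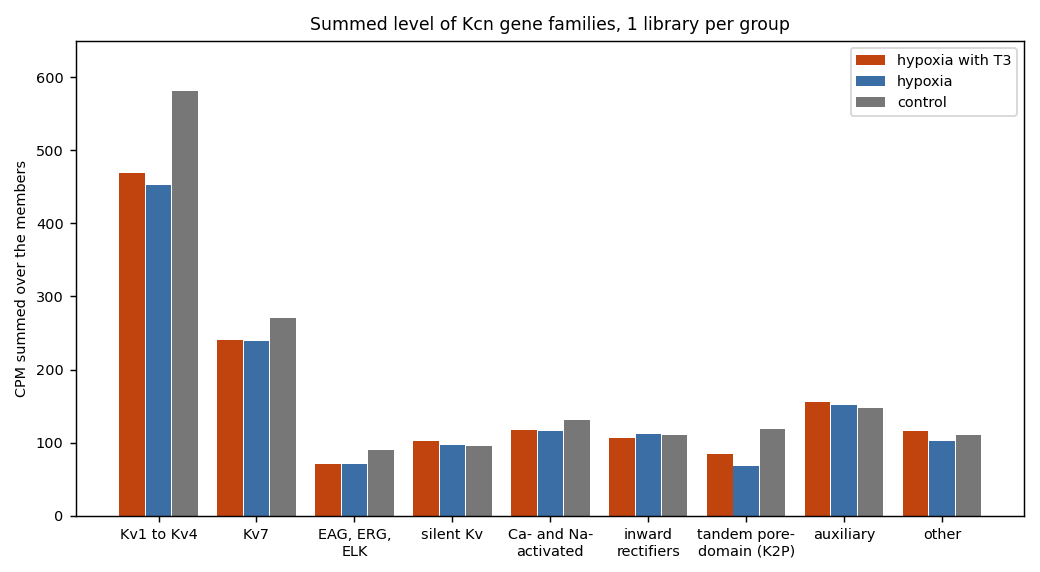
Summed CPM of each potassium channel family, with bars for hypoxia with T3, hypoxia and control in that order and axes that start at 0, 1 library per bar. The sum for tandem pore-domain channels is lower in both hypoxic libraries (84.2 and 68.3 CPM) than in control (118.9 CPM), and silent, inward rectifier and auxiliary sums are close in all libraries.

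With T3 against hypoxia alone, no potassium channel gene was called in either direction, and all 66 lay within 1.5-fold on the (CPM + 1) scale, against 99.0% of all compared genes. Over all compared genes 0.126% were called higher and 0.063% lower. The counting interval lay wholly above 1 for 10 channel genes, or 15.2%, against 11.1% of all compared genes, and wholly below 1 for 4, or 6.06%, against 6.71% of all compared genes. The median log2 ratio of (CPM + 1) was 0.003 for the channel genes, which ranged from -0.47 to 0.57, and 0.01 for all compared genes. Higher with T3 were 3 K2P genes, Kcnk1 by 1.54-fold (1.27 to 1.85), Kcnk9 by 1.45-fold (1.27 to 1.66) and the sparse Kcnk4 by 1.90-fold (1.02 to 3.73). The K2P sum was 1.23-fold (1.15 to 1.32) higher with T3 than in hypoxia, and 1.215-fold higher under the scaling that gave the lowest value. Kcnk1 (TWIK-1) had 14.7 CPM in hypoxia with T3, 9.55 CPM in hypoxia and 16.6 CPM in control, so its T3 level was near control, whereas Kcnk9 with T3 was above both other libraries. Kcnj11 was 1.56-fold (1.226 to 2.003) and Kcns2 1.43-fold (1.09 to 1.89) higher with T3. Kcnc1 was 1.17-fold (1.07 to 1.27), Kcnj4 1.16-fold (1.04 to 1.30), Kcnd3 1.10-fold (1.013 to 1.196) and Kcnq1ot1 1.12-fold (1.05 to 1.19) higher. Lower with T3 were Kcnj2, by a ratio of 0.714 (0.641 to 0.796), Kcna4 at 0.774 (0.624 to 0.961), Kcnh4 at 0.734 (0.555 to 0.971) and Kcnip1 at 0.848 (0.720 to 0.999). Hr, by comparison, differed far more between these libraries, as given above.

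**Figure D4:**
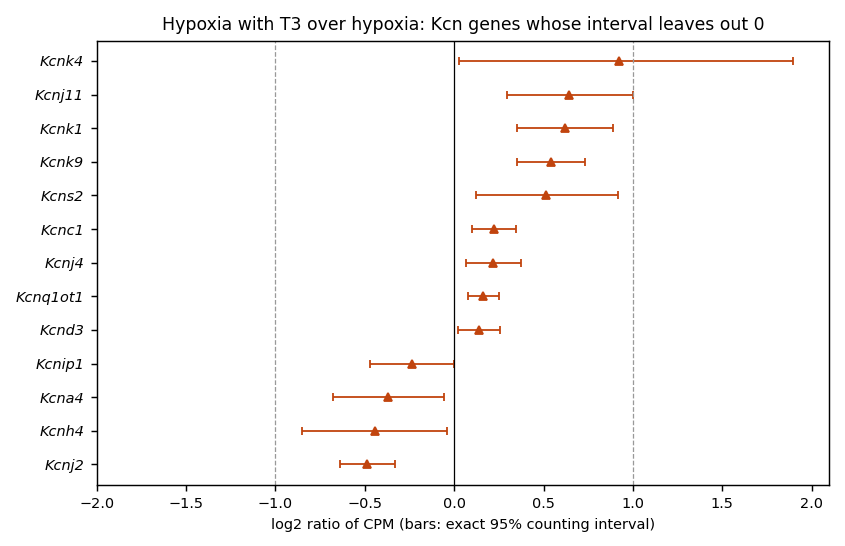
Log2 ratio of CPM, hypoxia with T3 over hypoxia, for 13 of the 14 potassium channel genes whose exact 95% counting interval (horizontal bar) left out a ratio of 1, with 1 library per group. Dashed lines mark 2-fold. Of the 13 genes shown 9 lie to the right of 0, with Kcnk4, Kcnj11, Kcnk1 and Kcnk9 at the top, and 4 to the left, with Kcnj2 lowest.

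Gene length went along with the ratios. Across the 66 channel genes the log2 ratio of hypoxia over control had a Spearman correlation of -0.35 with the genomic span in GENCODE M21 (GRCm38), and across 12608 genes with a span it was -0.51. These are correlations across genes of 1 pair of libraries, and genes are not replicates. Channel genes are long, with a median span of 52.3 kb against 25.8 kb for all compared genes. Those called lower in hypoxia had a median span of 155.5 kb, against 43.7 kb for the other channel genes. Over all compared genes, those called lower in hypoxia also had a long median span, of 111.9 kb. Of the 10 channel genes with a span of 100 to 300 kb, 4 were called lower, against 17.9% of all genes of that span. None of the 10 had a ratio above 1, against 23.9% of all genes of that span. Of the 12 with a span of at least 300 kb, 2 (16.7%) were called lower in hypoxia, against 15.7% of all genes of that span. In hypoxia with T3, 4 of these 12 (33.3%) were called lower, against 15.5% of all genes of that span. Among these 12, 5 lay within 1.25-fold of control in hypoxia on the (CPM + 1) scale, Kcnd2 (514.3 kb), Kcnh7 (490.9 kb), Kcnip4 (1135 kb), Kcnma1 (725.1 kb) and Kcnq3 (300.3 kb), and Kcnip1 (363.8 kb) was higher, with a log2 ratio of 0.58. The share within 1.25-fold was 41.7% for these channel genes and 41.9% for all genes of that span. Among the 13 under 10 kb, 2 were called lower, Kcnv1 (8.64 kb) and Kcns2 (6.05 kb), where 0.847% of all genes that short were. The part of span in these ratios was not tested.

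**Figure D5:**
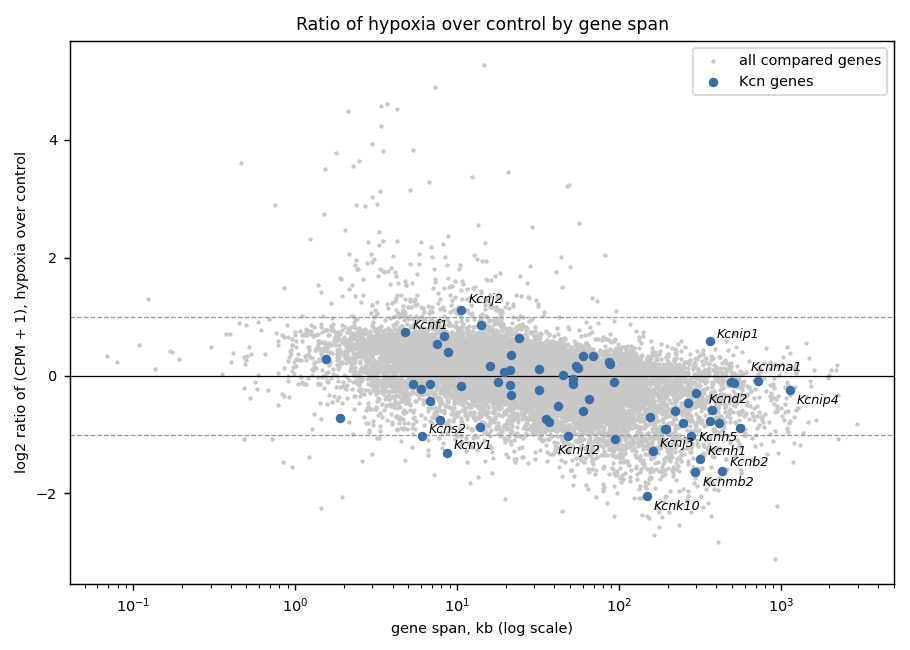
Log2 ratio of (CPM + 1) of hypoxia over control against genomic span in kb on a log axis, with grey points for all compared genes and blue points for the potassium channel genes, from 1 library per group. Dashed lines mark 2-fold. Kcnk10, Kcnmb2 and Kcnb2 are long genes below the lower line, Kcnv1 and Kcns2 are short genes below it, and Kcnd2, Kcnma1 and Kcnip4 are long genes near 0.

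Per kilobase of exon, the scale on which genes can be set against each other, Kcnj4, Kcnf1 and Kcnq5 had high mean levels. Kcnj4 had 16.8 CPM per kb in hypoxia with T3, 14.4 in hypoxia and 11.2 in control. Kcnq5 had the highest control level of these 3, with 9.25 CPM per kb in hypoxia with T3, 9.03 in hypoxia and 16.8 in control. Kcnf1 had 14.3 CPM per kb in hypoxia with T3, 13.5 in hypoxia and 8.01 in control. On this scale Kcnq5 was above the other 2 in control and below them in both hypoxic libraries. The kit was stranded, but the labels do not say whether reads were counted by strand. Stretches of sequence are shared with annotated transcripts on the opposite strand by Kcna6 (39.2%), Kcnmb4 (33.3%) and Kcnj3 (30.2%), so that reads of the partners may be mixed in these genes. Kcnip1 and Kcnmb1 overlap in genomic span on opposite strands. Of their transcript sequence, only 0.37% and 1.3% is shared with any gene on the opposite strand.

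The 30 genes that were not compared had at most 26 reads in any library, and 8 of them, Kcne1, Kcne3, Kcnj13, Kcnj8, Kcnk15, Kcnk16, Kcnk18 and Kcnmb4os1, had none. A count of 0 allows up to 0.128 CPM in hypoxia with T3, 0.166 CPM in hypoxia and 0.139 CPM in control.

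The authors' deposited table of each comparison with control lists 68 of these genes, with a false discovery rate whose test is not named in the labels. In the authors' deposited table for hypoxia, Kcns3 had a false discovery rate of 0.0154 beside a signed fold of -154.1, which is taken against 0 reads and is no measured size, and was the only channel gene under 0.05 among 85 genes. In the authors' deposited table for hypoxia with T3, Kcns3 (0.00376) and Kcnk10 (signed fold of -5.17, 0.0429) were under 0.05 among 104 genes. The unadjusted p in the authors' deposited table was under 0.05 for 9 channel genes in hypoxia, or 13.2%, against 6.34% of all genes there, and for 14 in hypoxia with T3, or 20.6%, against 6.18%. With 1 library per group, these p-values cannot rest on replicates of a condition.

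Of 28 genes outside the Kcn symbols that handle potassium or bind its channels, 25 were compared, 1 was called lower in each hypoxic library against control and none higher. Over all compared genes 4.92% were called lower in hypoxia and 4.59% in hypoxia with T3, so 1 of 25 does not set these genes apart. All 6 sodium pump genes, which restore the potassium gradient, were above control in hypoxia, and their sum was 3792 CPM in hypoxia with T3, 3550 CPM in hypoxia and 2618 CPM in control. Among the cation-chloride cotransporters, Slc12a2 had 25.9 CPM in hypoxia with T3, 28.9 CPM in hypoxia and 47.5 CPM in control, and Slc12a5 had 186.9 CPM in hypoxia with T3, 173.3 CPM in hypoxia and 150.4 CPM in control. Lrrc55, a BK gamma subunit gene, had 31.4 CPM in hypoxia with T3, 19.6 CPM in hypoxia and 38.7 CPM in control.

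In bulk RNA, fewer cells of a type and less RNA per cell cannot be told apart. Markers of several cell types were present beside those of neurons. The 8 neuronal markers, all detected, summed to 5445 CPM in hypoxia with T3, 5519 CPM in hypoxia and 5656 CPM in control, with 1 called higher and 1 lower in each comparison with control. The 6 excitatory markers summed to 827.0 CPM in hypoxia with T3, 833.0 CPM in hypoxia and 890.2 CPM in control, with 1 called lower in each comparison with control, and the 6 inhibitory markers to 431.6 CPM in hypoxia with T3, 455.1 CPM in hypoxia and 334.6 CPM in control. The 7 astrocyte markers summed to 469.1 CPM in hypoxia with T3, 444.7 CPM in hypoxia and 450.4 CPM in control. The 8 oligodendrocyte lineage markers were lower beside the lower channel genes, at 197.4 CPM in hypoxia with T3, 195.1 CPM in hypoxia and 337.2 CPM in control, with 3 of the 8 called lower in hypoxia and 2 of the 8 in hypoxia with T3. Microglial and endothelial markers summed to under 2 CPM in every library, and the pericyte and fibroblast markers to 13.3 CPM in hypoxia with T3, 12.5 CPM in hypoxia and 9.55 CPM in control. At 0 were Tmem119 and Cldn5 in both hypoxic libraries and Cdh5 in hypoxia with T3. The part of cell makeup in the channel genes' ratios was not tested.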

How the data were processed

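Stranded RNA libraries (KAPA kit, per the labels' protocols) of 3 cultures of mouse cortical neurons were used, 1 library per group, grouped by treatment label. RSEM 1.2.15, Bowtie2 2.1.0, bcl2fastq 2.17 and the build mm10 are named, without roles, in the submitters' processing notes. The authors deposited a table of 24054 genes in CPM, TMM-normalised per the name it was deposited under. Every CPM value was within 0.01 of a whole multiple of 1 read, so whole reads were recovered for 100% of values; with no replicate no count test was run. The authors also deposited 2 tables of 13152 genes with a signal column per library (the same reads on another scale, not used for folds), a signed fold as a score (minus the inverse where below 1, from the values) and, per the file headers, a p-value with its false discovery rate (FDR). Printed FDR values are copied from these.

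Genes that averaged at least 1 CPM were compared by the log2 ratio of (CPM + 1) and called at 2-fold. Genes with lower means are given as reads. Named genes were those called in any comparison, the 10 highest and 10 lowest ratios in hypoxia, the 5 highest and 5 lowest with T3 over hypoxia among genes of at least 5 CPM, the 3 with the highest mean CPM per family, the extremes per kilobase of exon and 19 fixed genes; some of these are given only in the figures, and genes named beside a count or an interval were chosen after their values were seen. The channel genes, lists and rules were chosen with earlier results of these data known. 1 gene with the prefix is left out, and some genes that the counts, sums and medians include are not reported here by name. Spans and exonic lengths came from GENCODE M21, matched by symbol for all 96 genes, promoters from RefSeq (GRCm38.p6), and shared sequence from 31-base words of annotated transcripts. Alternatives were other pseudocounts, filters, folds and scalings (equal sums, DESeq2 1.42.0 and edgeR 4.0.16 factors on recovered reads, R 4.3.3). Intervals were checked on counts simulated with counting error only, so the check does not reach the spread between cultures. No molecular identifiers were used as far as the labels say, and reads are therefore not counts of molecules: intervals and floors (3 reads) cover counting error only. Intervals came from scipy 1.17.1 under Python 3.11.15, tables from pandas 2.3.3 and figures from matplotlib 3.10.9.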

Additional observations from a re-analysis of the deposited data

How the results depend on the processing

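No paired analysis was possible because each group has 1 library, so leaving out a replicate was not possible either. Of channel genes at least 2-fold higher in hypoxia, 1 as reported, there were 2 with a pseudocount of 0.25 CPM, 0 with 5 CPM, 0 with libraries scaled to equal sums and 5 at 1.5-fold. Higher in hypoxia with T3, 0 as reported, were 1 with a pseudocount of 0.25 CPM and 5 at 1.5-fold. The 10 lower in hypoxia became 5 with a pseudocount of 5 CPM and 24 at 1.5-fold, and the 12 lower in hypoxia with T3 became 5 with a pseudocount of 5 CPM, 7 among genes of at least 5 CPM and 22 at 1.5-fold. These counts stayed within 1.5 times the reported ones under the other alternatives run, and no channel gene was called between the hypoxic libraries in any. A pseudocount of 5 CPM shrinks the ratios of low genes by construction, and a fold of 1.5 admits smaller ones. The median of the channel genes against control kept its sign in every alternative, from -0.40 under equal sums to -0.12 with no filter in hypoxia, and from -0.35 under equal sums to -0.06 with no filter in hypoxia with T3. The other scalings all lower the ratios to control, so they could not have turned this sign. Of 159 log2 ratios of named genes, 33 moved beyond their counting interval under equal sums, 14 with a pseudocount of 5 CPM, 4 with edgeR factors, 1 with DESeq2 factors and 0 with a pseudocount of 0.25 CPM. Summed levels of silent subunits, inward rectifiers and auxiliary subunits were 1.015, 1.015 and 1.034 times control in hypoxia as deposited and 0.900, 0.900 and 0.917 times control under equal sums, so their direction depends on the scaling. Depth limits the sparse genes: at 14 reads in hypoxia, Kcnh5 had an interval from 1.84-fold to 6.53-fold lower.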

Other observations

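Several channel genes lie beside each other, and such neighbours did not always stand on the same side of control. Kcna3 and Kcna2, 63.1 kb apart on chromosome 3, were both lower in hypoxia, with Kcna3 at 4.76 CPM in hypoxia with T3, 5.69 CPM in hypoxia and 10.1 CPM in control. Kcna10, 68.0 kb beyond Kcna2, had at most 2 reads in a library. Kcna5, Kcna1 and Kcna6 follow each other on chromosome 6, where Kcna5 had 13 reads in hypoxia with T3, 5 in hypoxia and 13 in control. The SK genes Kcnn1 to Kcnn4 summed to 9.57 CPM in hypoxia with T3, 11.1 CPM in hypoxia and 17.4 CPM in control. The other scalings, which lower all ratios to control, placed both hypoxic sums further below it. Kcnu1, the gene of a channel known from sperm, was read at 6.63 CPM in hypoxia with T3, 5.25 CPM in hypoxia and 4.45 CPM in control.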
